A study of Mus musculus with 11 samples.

Results

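The mesothelium is the sheet of flattened cells that covers the lung as the visceral pleura. It is a mesoderm-derived layer that nevertheless carries epithelial features, among them simple keratins, surface glycoproteins and microvilli. During lung development it lies directly on the mesenchyme and exchanges signals with it, and some mesothelial cells enter the underlying tissue. Markers of this layer were followed in primary cultures of mouse fetal lung mesenchyme that differed in Sp3, a zinc finger transcription factor that binds GC boxes in promoters and can activate or repress. The 10 markers were 2 uroplakins (*Upk1b* and *Upk3b*), 3 surface glycoproteins (*Msln*, *Muc16* and *Lrrn4*), the transcription factor *Wt1* and 4 keratins (*Krt7*, *Krt8*, *Krt18* and *Krt19*). They were taken by symbol as known markers of the layer, and were chosen with earlier results of these data known. Of the 10, 9 had a row among the 24062 genes counted. *Muc16* was not analysed here. All 9 passed the filter on low counts.

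The libraries came from lungs of embryonic day 15. The cells were enriched by adhesion to culture plastic and passaged 2 times before RNA was extracted. There were 4 wild-type libraries (*Sp3+/+*, WT), 4 heterozygous libraries (*Sp3+/-*) and 3 homozygous mutant libraries (*Sp3-/-*). The embryos descended from Sp3 heterozygous mice, no treatment is given in the labels, and the mouse strain is not given in the sources used here. WT libraries are listed below in the order 468-4, 685-2, 697-1 and 697-3. *Sp3+/-* libraries follow the order 468-3, 685-5, 685-7 and 697-4, and *Sp3-/-* libraries the order 685-1, 697-2 and 697-5. The sample labels do not state that libraries of a genotype came from separate animals or cultures, so p-values measure the spread between these libraries.

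Between 9849111 and 59297495 reads were counted on genes per library. The labelled mesenchymal identity was examined with 12 lung mesenchyme markers, which together measured 11532 to 48190.1 CPM (reads per 1000000 gene reads, TMM adjusted) in the 11 libraries. The lowest sum was that of *Sp3-/-* library 697-5, in which 7 macrophage markers summed to 9796 CPM. Sp3 itself checked the labels. It measured 92.1, 61.3, 108 and 78.7 CPM in WT, 52.4, 62.5, 70.8 and 56.4 in *Sp3+/-* and 18.7, 17.9 and 14.8 in *Sp3-/-* cells. The *Sp3-/-* libraries were the lowest, with a log2 fold change of -2.30 against WT (SE 0.21, adjusted p = 0.0061, edgeR's quasi-likelihood F test, Benjamini-Hochberg adjusted). Some library titles carry a final 2 or 3, called the suffix here, which no source explains. All 3 *Sp3-/-* libraries, WT library 468-4 and *Sp3+/-* library 697-4 have none, whereas the other 3 WT libraries have suffix 3. Suffix and genotype were therefore nearly confounded, and values from a fit of all 11 libraries that includes the suffix are given for each marker and each other gene list called.

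Sp3 binds GC boxes, and the promoters of 5 markers with a row, from 250 bases before to 50 after the start, were available from RefSeq (GRCm38.p6). They are those of *Upk3b*, *Lrrn4*, *Krt7*, *Krt8* and *Krt18*. The *Lrrn4* promoter (chromosome 2, 132880813 to 132881112, - strand) lies within the gene's span of 132866686 to 132894010. It is thus that of an internal start. A GC box core (GGGCGG, or CCGCCC on the other strand) was found in the *Krt7* promoter alone, 4 times, and in 35.7% of all 32851 promoters of this length. The full box (GGGGCGGGG or CCCCGCCCC), which contains the core, was found in none of the 5 and in 11.4% of all promoters. The *Krt7* and *Krt18* promoters are shown because these keratin genes were both higher in *Sp3-/-* cells but differ in cores, and *Upk3b* as a member without a core whose change missed the threshold. Capitals mark the cores, and a match is a description of the letters, not evidence of binding.
Krt7 promoter, chr15:101412153-101412452, + strand: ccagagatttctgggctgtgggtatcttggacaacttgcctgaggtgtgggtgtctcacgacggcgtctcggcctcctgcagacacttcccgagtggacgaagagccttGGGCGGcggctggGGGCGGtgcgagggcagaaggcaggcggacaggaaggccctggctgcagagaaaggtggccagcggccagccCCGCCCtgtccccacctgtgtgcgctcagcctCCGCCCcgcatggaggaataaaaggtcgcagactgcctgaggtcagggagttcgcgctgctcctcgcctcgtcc
Krt18 promoter, chr15:102027966-102028265, + strand: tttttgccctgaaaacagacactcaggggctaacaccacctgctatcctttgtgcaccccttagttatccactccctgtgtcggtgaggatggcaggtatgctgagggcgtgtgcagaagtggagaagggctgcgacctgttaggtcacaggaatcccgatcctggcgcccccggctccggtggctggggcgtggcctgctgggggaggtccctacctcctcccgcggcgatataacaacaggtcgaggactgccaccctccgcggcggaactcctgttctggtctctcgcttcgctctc
Upk3b promoter, chr5:136038246-136038545, + strand: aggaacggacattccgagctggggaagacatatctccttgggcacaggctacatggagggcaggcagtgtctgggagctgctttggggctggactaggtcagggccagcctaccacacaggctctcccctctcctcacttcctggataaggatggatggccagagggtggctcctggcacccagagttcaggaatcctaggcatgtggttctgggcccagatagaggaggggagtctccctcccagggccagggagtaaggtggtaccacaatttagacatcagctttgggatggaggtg
Relative to the start of transcription, the first core in the *Krt7* promoter began at -141 and the last at -24.

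All 9 mesothelial markers had a higher fitted level in *Sp3-/-* than in WT cells, and 5 of them, *Wt1*, *Krt18*, *Upk1b*, *Krt7* and *Msln*, rose past an adjusted p of 0.05 (edgeR). None was lower. With the title suffix in the model 1 of the 9, *Wt1*, was called, and 0 when 697-4 took the suffix that its file carries (edgeR, 6 and 2 with an unadjusted p below 0.05). These 2 fits of all 11 libraries called 1329 and 163 of 14130 genes. A fit of all 11 libraries without the suffix called 8 markers and 3977 genes (edgeR). Over all 14025 genes tested in the fit of WT and *Sp3-/-* libraries alone, 18.5% were called and 8.76% were called higher. The median log2 fold change of the 9 markers was 1.73, against -0.0032 for all genes tested. Because the markers were chosen with earlier results of these data known, no test over the list was run. The 9 markers together took between 0.0709% (WT library 697-3) and 0.613% (*Sp3-/-* library 685-1) of the reads on genes. In bulk RNA, fewer cells of a type and less RNA per cell cannot be told apart, and the same holds for more cells and more RNA.

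**Figure D1:**
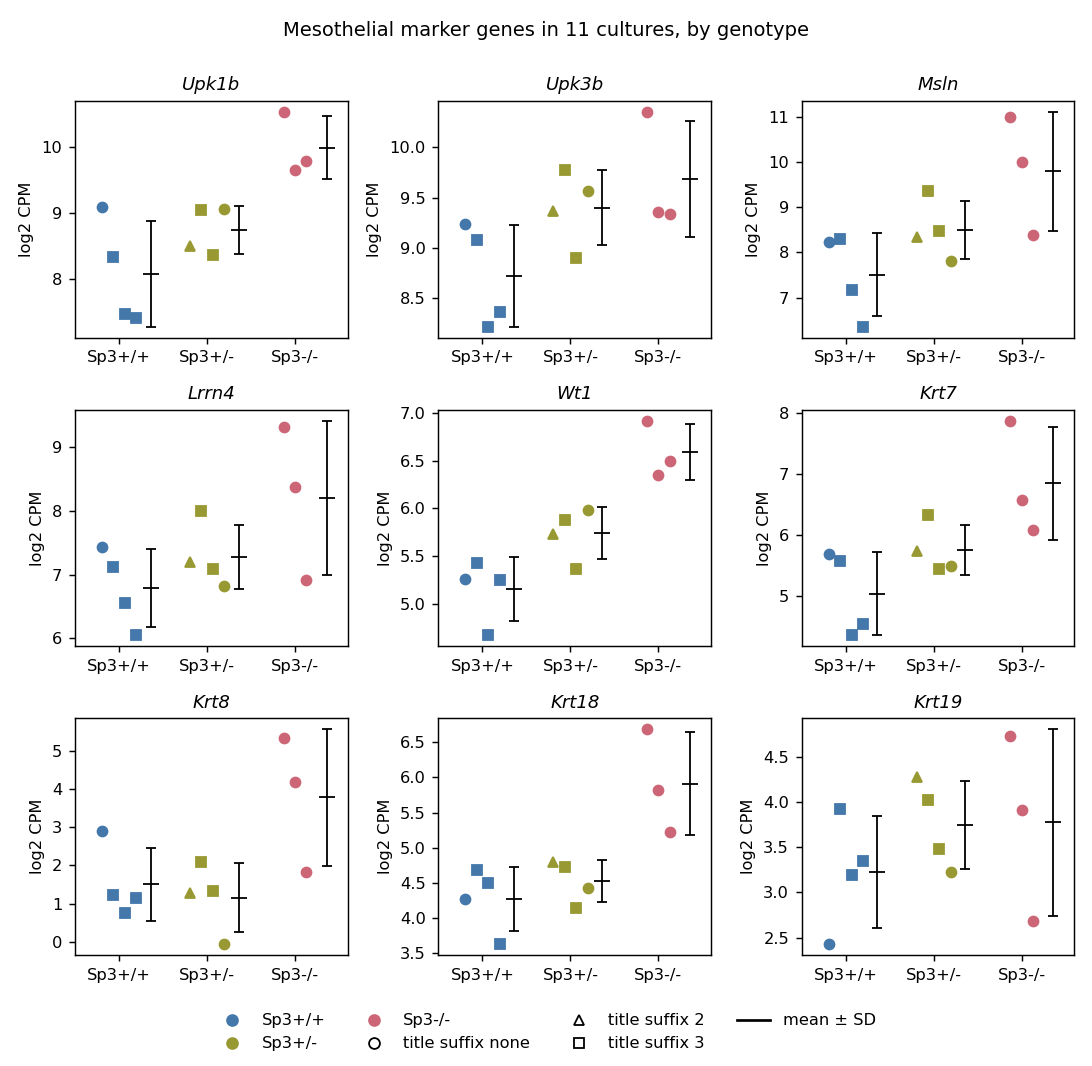
Level of each marker (log2 CPM, vertical axis) in the 4 WT, 4 Sp3+/- and 3 Sp3-/- libraries. Each point is 1 library, its shape gives the title suffix, and the bar to the right of each genotype is the mean ± SD; Sp3-/- library 685-1 is the highest library for all 9 genes.

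The uroplakins are tetraspan and single-pass membrane proteins best known from the plaques of the bladder urothelium, and both are also transcribed in mesothelium. *Upk1b* (chromosome 16 of GRCm38.p6, 38773182 to 38800203), the tetraspanin of the pair, measured 547, 324, 178 and 171 CPM in WT. It measured 363, 532, 329 and 535 in *Sp3+/-* and 1478, 801 and 880.0 in *Sp3-/-* cells. Every *Sp3-/-* library lay above every WT and *Sp3+/-* library. It rose in *Sp3-/-* against WT cells by 1.79 on the log2 scale (SE 0.44, adjusted p = 0.0340, edgeR). With the suffix in the model this was 1.25 and not called (adjusted p = 0.102, edgeR).

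*Upk3b* (chromosome 5, 136038496 to 136044993) measured 603, 539, 297 and 329.5 CPM in WT, 658, 876, 478 and 757 in *Sp3+/-* and 1309.7, 658 and 649 in *Sp3-/-* cells. The *Sp3-/-* libraries stood above all WT libraries but among the *Sp3+/-* libraries, apart from 685-1. Its log2 fold change against WT was 0.98 and did not pass the threshold (SE 0.34, adjusted p = 0.0804, edgeR), nor did 0.69 with the suffix in the model (adjusted p = 0.324, edgeR). The order of the uroplakins differed between genotypes. On the log2 CPM scale *Upk3b* exceeded *Upk1b* by 0.64±0.35 in WT (SD, n=4) and by 0.65±0.17 in *Sp3+/-* cells (SD, n=4). In all 3 *Sp3-/-* libraries *Upk1b* was the higher, with a difference of -0.30±0.13 (SD, n=3). This ratio was chosen after its values were seen and was not tested.

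*Msln* encodes mesothelin, a GPI-anchored surface protein that is clipped from a larger precursor, and its product binds the mucin encoded by *Muc16*. *Msln* (chromosome 17, 25748613 to 25754378) measured 298, 312, 143 and 81.8 CPM in WT, 322, 652, 358 and 224 in *Sp3+/-* and 2039.6, 1025 and 333 in *Sp3-/-* cells. Its *Sp3-/-* libraries spread widely, and the lowest of them, 697-5, was barely above the highest WT library. The gain of 2.44 on the log2 scale passed the threshold (SE 0.66, adjusted p = 0.0431, edgeR). With the suffix in the model it was 2.46 and did not (adjusted p = 0.114, edgeR).

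*Lrrn4* (chromosome 2, 132866686 to 132894010), which encodes a leucine-rich repeat membrane protein, measured 173, 139, 94.2 and 66.1 CPM in WT, 147, 255, 135 and 113 in *Sp3+/-* and 639, 331 and 121 in *Sp3-/-* cells. Library 697-5 lay within the WT range, so the genotypes overlapped. A log2 fold change of 1.63 was not called (SE 0.54, adjusted p = 0.0719, edgeR), nor was 1.53 with the suffix in the model (adjusted p = 0.195, edgeR). An exon of *Lrrn4* overlaps *Crls1* on the opposite strand, and the strand setting of the counting is not given in the sources used here.

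*Wt1*, a zinc finger transcription factor required for normal mesothelium and for the organs that form beside it, had the narrowest spread of the 9 markers within each genotype on the log2 scale. It lies on chromosome 2 from 105126529 to 105173614. It measured 38.4, 43.1, 25.4 and 37.9 CPM in WT, 53.0, 58.6, 41.1 and 63.3 in *Sp3+/-* and 121, 81.3 and 90.4 in *Sp3-/-* cells. The *Sp3-/-* libraries were above all others. Means were 5.15±0.33 log2 CPM in WT (SD, n=4), 5.74±0.27 in *Sp3+/-* (SD, n=4) and 6.59±0.30 in *Sp3-/-* cells (SD, n=3). Against WT, *Wt1* rose by 1.44 on the log2 scale (SE 0.20, adjusted p = 0.0100, edgeR). With the suffix in the model the value was 1.27, and *Wt1* was the sole marker still called (adjusted p = 0.0314, edgeR).

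*Wt1os*, a transcript antisense to *Wt1* with overlapping exons, measured 1.18, 1.31, 0.893 and 1.12 CPM in WT, 2.15, 3.12, 1.88 and 2.88 in *Sp3+/-* and 7.18, 3.86 and 4.81 in *Sp3-/-* cells. The 3 genotypes did not overlap for *Wt1os*. Its log2 fold change in *Sp3-/-* against WT cells was 2.23 (SE 0.28, adjusted p = 0.0082, edgeR), and 2.13 with the suffix in the model (adjusted p = 0.0166, edgeR). Without the strand of the reads, *Wt1* and *Wt1os* reads in the shared exons cannot be told apart.

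The 4 keratins are those of simple epithelia, in which a type II keratin (*Krt7*, *Krt8*) pairs with a type I keratin (*Krt18*, *Krt19*) to build intermediate filaments. *Krt7* (chromosome 15, 101412403 to 101427806), whose promoter held the 4 cores, measured 51.8, 47.6, 20.6 and 23.4 CPM in WT. It measured 53.5, 80.9, 43.4 and 45.2 in *Sp3+/-* and 235, 95.5 and 68.1 in *Sp3-/-* cells. The *Sp3-/-* libraries did not overlap WT, although 697-5 lay below *Sp3+/-* library 685-5. *Krt7* rose by 1.90 on the log2 scale (SE 0.50, adjusted p = 0.0393, edgeR). Its value in the model with the suffix was 1.74, which was not called (adjusted p = 0.120, edgeR).

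*Krt18* (chromosome 15, 102028216 to 102032026), the usual partner of *Krt8*, measured 19.3, 25.6, 22.4 and 12.3 CPM in WT, 27.8, 26.4, 17.7 and 21.4 in *Sp3+/-* and 103, 56.5 and 37.4 in *Sp3-/-* cells. WT and *Sp3+/-* libraries covered much the same range, and all 3 *Sp3-/-* libraries were above it. *Krt18* rose by 1.73 on the log2 scale (SE 0.37, adjusted p = 0.0235, edgeR). Including the suffix left the value at 1.77, just short of the threshold (adjusted p = 0.0543, edgeR).

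*Krt8* (chromosome 15, 101996711 to 102004342) had the lowest mean CPM of the 9 markers in WT and in *Sp3+/-* cells, but not in *Sp3-/-* cells. It measured 7.45, 2.28, 1.62 and 2.16 CPM in WT, 2.37, 4.20, 2.43 and 0.895 in *Sp3+/-* and 40.0, 18.0 and 3.48 in *Sp3-/-* cells. The values rested on 18 to 1437 reads, and *Sp3-/-* library 697-5 lay below WT library 468-4. Its log2 fold change of 2.59 was the highest fitted value among the 9 markers but was not called (SE 0.81, adjusted p = 0.0620, edgeR), nor was 2.25 with the suffix in the model (adjusted p = 0.187, edgeR). Of the 50-base windows of its transcript, 51.5% had an identical copy elsewhere in GRCm39, against 1.29% for *Krt7*, 0.72% for *Krt18* and none for the other markers. Reads from such windows do not align uniquely, so the level of *Krt8* is uncertain.

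*Krt19* (chromosome 11, 100140810 to 100145926), a type I keratin with a very short tail, measured 5.31, 15.1, 9.09 and 10.1 CPM in WT, 19.3, 16.1, 11.1 and 9.25 in *Sp3+/-* and 26.5, 14.9 and 6.35 in *Sp3-/-* cells. The genotypes overlapped throughout. Its log2 fold change of 0.71 was not called (SE 0.49, adjusted p = 0.3281, edgeR), nor was 1.41 with the suffix in the model (adjusted p = 0.142, edgeR). Of the 9 markers it was one of 3, with *Lrrn4* and *Krt8*, whose WT and *Sp3-/-* libraries overlapped. The other 6 did not overlap, as was true of 31.6% of all genes tested in either direction.

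**Figure D2:**
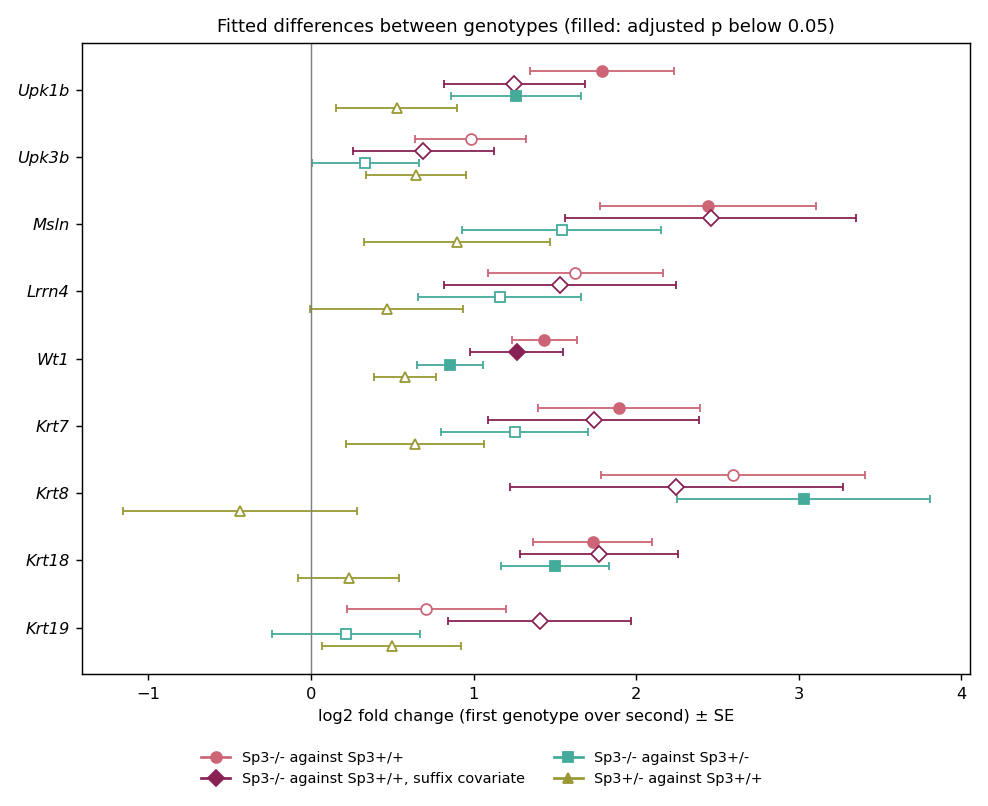
Fitted log2 fold change ± SE (horizontal axis) of the 9 markers in the 3 comparisons of genotypes and, for Sp3-/- against WT, with the title suffix as a covariate; filled symbols have an adjusted p below 0.05 (edgeR). In Sp3-/- against WT, 5 of 9 are filled, in Sp3-/- against Sp3+/- 4 of 9, with the suffix covariate 1, and in Sp3+/- against WT none.

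*Sp3+/-* cells were compared with WT to ask whether loss of 1 allele changed the markers. No marker and no gene of the 14130 tested passed the threshold (0% called, edgeR), and DESeq2 and limma-voom called none. Sp3 itself was not called either, at a log2 fold change of -0.49 (SE 0.16, adjusted p = 0.9999, edgeR). The absence of calls therefore does not show that the markers were unchanged. An unadjusted p below 0.05 was found for 246 genes with edgeR, 281 with DESeq2 and 303 with limma-voom. Among the markers it was found for *Wt1* alone with edgeR, with a log2 fold change of 0.58 (SE 0.19, adjusted p = 0.9999, edgeR). Fitted values were positive for 8 of the 9 markers, with a median of 0.53 and a highest value of 0.90 for *Msln*. *Krt8* had a value of -0.44 (SE 0.72). No marker separated the *Sp3+/-* from the WT libraries without overlap, which 1.41% of all genes did. Within suffix 3, 2 of them *Sp3+/-* and 3 WT, all 9 markers averaged higher in *Sp3+/-* cells, by 0.17 for *Krt18* to 1.65 for *Msln* on the log2 CPM scale. Both of these *Sp3+/-* libraries have titles that begin with 685, whereas 2 of the WT libraries begin with 697. Against the 1 WT library of 685, 7 of 9 averaged higher (median 0.32), with *Krt18* at -0.24 and *Krt19* at -0.18. Within 468 and 697, 6 and 7 of 9 averaged higher in *Sp3+/-* cells. Between the suffix-free libraries, 1 *Sp3+/-* and 1 WT, 4 of 9 were higher.

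In *Sp3-/-* against *Sp3+/-* cells all 9 fitted values were again positive, and 4 were called higher (edgeR), where 25.5% of 14130 genes were called and 13% called higher. These comparisons share *Sp3-/-* libraries with those against WT. *Krt8* had a log2 fold change of 3.03 (SE 0.78, adjusted p = 0.0200, edgeR) and *Krt18* of 1.50 (SE 0.33, adjusted p = 0.0118, edgeR). *Upk1b* had 1.26 (SE 0.40, adjusted p = 0.0422, edgeR) and *Wt1* 0.85 (SE 0.20, adjusted p = 0.0151, edgeR). *Upk1b*, *Wt1* and *Krt18* did not overlap between these genotypes, as did 34.2% of all genes. *Upk3b*, at 0.33 (SE 0.33, adjusted p = 0.4818, edgeR), and *Krt19*, at 0.21 (SE 0.46, adjusted p = 0.7604, edgeR), had the lowest values. The median was 1.25, and none of the 9 was called with the suffix covariate, which gave a median of 1.00.

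The calls depended on single libraries, and so did those over all genes. Leaving out 1 library turned the 2599 called genes into 282 to 4179. *Sp3-/-* library 685-1 was the highest of all 11 for each of the 9 markers, and WT libraries 697-1 and 697-3 were the lowest for 3 and 4 of them. Without 685-1, the median log2 fold change against WT fell from 1.73 to 1.25 and 2 markers were called, *Wt1* and *Krt18*. Without WT library 685-2, 697-1 or 697-3, or without *Sp3-/-* library 697-2, *Wt1* alone was called. Without WT library 468-4 there were 7 calls, and without *Sp3-/-* library 697-5 there were 6. An unadjusted p below 0.05 was found for 5 markers without 685-1 and for 7 without 697-1 or 697-3 (edgeR). It was found for 8 without 468-4, 685-2 or 697-2 and for 9 without 697-5. *Wt1* was called in all 7 of these fits (highest adjusted p = 0.0396, edgeR). Each marker kept a positive fitted value in all 7.

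**Figure D3:**
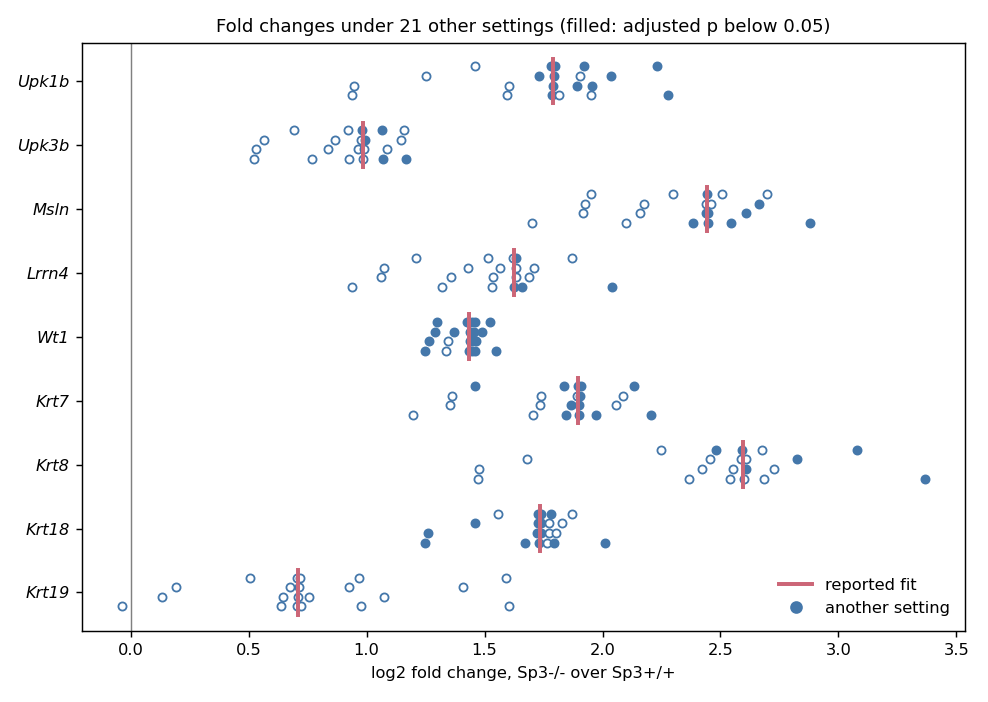
Log2 fold change of each marker in Sp3-/- against WT cells (horizontal axis) in the reported fit (bar) and under 21 other settings (points), filled where the adjusted p was below 0.05. Wt1 ranges from 1.25 to 1.55, while Krt8 ranges from 1.47 to 3.37 and Krt19 from -0.035 to 1.60.

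The title suffix was also removed by comparing only libraries that have none, 3 *Sp3-/-* and 1 WT library. All 9 markers averaged higher in *Sp3-/-* than in WT library 468-4, by 0.45 for *Upk3b* to 1.64 for *Krt18* on the log2 CPM scale, with a median of 1.15. A fit of these 4 libraries called no gene (edgeR, 1337 with an unadjusted p below 0.05), not even Sp3 (log2 fold change -2.43, adjusted p = 0.293), so the absence of calls there says nothing about the markers. For 7 of the markers all 3 *Sp3-/-* libraries were above 468-4. The exceptions were *Lrrn4* and *Krt8*, with 2 of 3. Within the first number of the library titles, the differences were positive for all 9 markers in both numbers that hold WT and *Sp3-/-* libraries, with medians of 2.19 in 685 (1 library each) and 1.47 in 697 (2 libraries each). The lowest was 0.022, for *Krt19* in 697, where the *Sp3-/-* libraries lay on either side of the WT libraries.

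Per kilobase of the canonical GENCODE M39 transcript, the markers spanned a wide range of levels, and their order shifted between genotypes. In WT the geometric means, in CPM per kb, were 119.6 for *Upk3b*, 77.5 for *Upk1b* and 72.1 for *Msln*. They were 13.9 for *Lrrn4*, 13.4 for *Krt18*, 10.6 for *Wt1*, 8.06 for *Krt7*, 5.88 for *Krt19* and 1.42 for *Krt8*. The uroplakins and *Msln* formed an upper group whose ranges did not overlap those below, while all other neighbours in the order overlapped. Among 14133 genes ranked by mean CPM in WT, *Upk3b* was number 292 and *Upk1b* number 524. In *Sp3-/-* cells *Msln* came first at 351.5 CPM per kb, followed by *Upk1b* at 290.0 and *Upk3b* at 233, and *Krt18* was the fourth at 41.9. In that order, too, the sole gap was between the first 3 genes and the rest. In *Sp3+/-* cells the order began with *Upk3b* (191), *Msln* (143) and *Upk1b* (123), and ranges separated these from *Lrrn4* (19.4), and *Krt19* (8.48) from *Krt8* (1.10).

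A wider list of 17 genes known from mesothelium was examined beside the markers. Of the 15 tested, 14 had higher fitted values in *Sp3-/-* than in WT cells, 5 were called higher and 1 lower, with a median log2 fold change of 1.29. Over all genes tested in this comparison 18.5% were called, 8.76% higher and 9.77% lower. *C3*, a complement component, had a log2 fold change of 4.00 (SE 1.06, adjusted p = 0.0403, edgeR) and overlapping libraries. *Podxl*, the sialomucin podocalyxin, had 3.22 (SE 0.39, adjusted p = 0.0080, edgeR), *Anxa8*, an annexin, 1.97 (SE 0.34, adjusted p = 0.0153, edgeR) and *Bnc1*, a zinc finger protein, 1.79 (SE 0.43, adjusted p = 0.0319, edgeR). The fifth, *Ezr*, encodes the microvillar linker ezrin (1.55, SE 0.33, adjusted p = 0.0239, edgeR). *Nkain4*, the gene called lower, had -1.69 (SE 0.35, adjusted p = 0.0221, edgeR) and is named because of that count. *Podxl* measured 4.30 to 12.1 CPM in WT, 13.1 to 26.7 in *Sp3+/-* and 39.7 to 87.1 in *Sp3-/-* cells, so its 3 genotypes did not overlap. With the suffix in the model 14 of 15 values were again higher (median 1.56), with *C3*, *Podxl* and *Anxa8* called higher and *Nkain4* lower, while *Bnc1* (1.88) and *Ezr* (1.31) lost their calls (adjusted p = 0.0778 and 0.0881, edgeR). With single libraries left out, 1 to 7 of the 15 were called, 1 without 697-2, 2 without 697-1 or 697-3, 3 without 685-1 or 685-2 and 7 without 697-5. In *Sp3+/-* against WT cells none of the 15 was called (edgeR and DESeq2, 2 with an unadjusted p below 0.05 in edgeR), with a median of 0.64. In *Sp3-/-* against *Sp3+/-* cells 3 were called higher and 1 lower, with a median of 0.58. Over all genes 25.5% were called there, 13% higher and 12.5% lower, so the share called was close to that of the list.

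**Figure D4:**
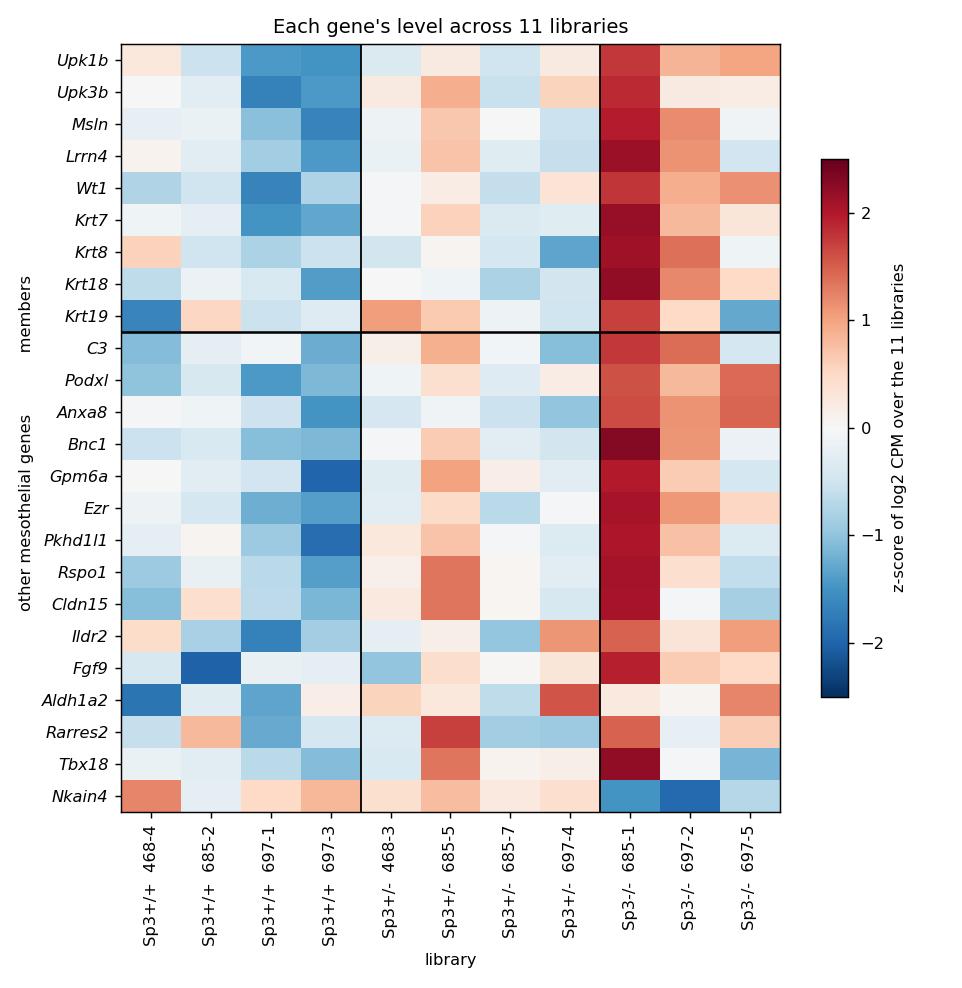
Level of the 9 markers (above the line) and of the 15 other mesothelial genes tested (below it) in the 11 libraries (columns, by genotype), as z-scores of log2 CPM for each gene over the libraries. Sp3-/- library 685-1 is high for most genes, WT libraries 697-1 and 697-3 are low for most markers, and Nkain4 runs the other way.

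Few relatives of the markers were detected. Of 7 uroplakin and mesothelin relatives, 2 passed the filter, *Muc1* (-0.16) and *Upk1a* (-0.97), and neither was called by edgeR or DESeq2 (1 had an unadjusted p below 0.05 with edgeR). Of 44 keratin genes that are not markers, 4 passed the filter and none was called in *Sp3-/-* against WT cells (edgeR, 1 with an unadjusted p below 0.05), while DESeq2 called 1, as did edgeR without 697-5. The most abundant of them were *Krt80* (-0.50, SE 0.27, adjusted p = 0.2133, edgeR) and *Krt20* (-1.73, SE 0.52, adjusted p = 0.0555, edgeR). Over all genes tested in *Sp3-/-* against WT cells, 18.5% were called and 9.77% called lower. Among 9 tested genes of desmosomes and keratin anchorage, 3 had an unadjusted p below 0.05 and 1 was called, the cytolinker *Plec*, at -0.71 (SE 0.12, adjusted p = 0.0151, edgeR). The others with such a p were the desmosomal cadherin *Dsg2*, at 2.70 (SE 0.85, adjusted p = 0.0622, edgeR), and the plaque protein *Dsp*, at 1.76 (SE 0.59, adjusted p = 0.0725, edgeR). Both were called higher against *Sp3+/-* cells, at 2.42 for *Dsg2* (adjusted p = 0.0365, edgeR) and 1.82 for *Dsp* (adjusted p = 0.0407, edgeR), and are named because of those counts. In that comparison 25.5% of all genes were called and 13% called higher. When the suffix was included, *Plec* was the 1 gene of the list called against WT (-0.73), with *Dsg2* at 2.55 and *Dsp* at 0.86. The list held 0 calls without 697-2 and 3 without 468-4.

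The genes whose levels ran closest to the markers over the 11 libraries were picked by Pearson correlation with the mean z-score, among 11204 genes with a mean above 2 log2 CPM. The libraries share genotype, suffix and depth differences, so these values are descriptions. Nearest to the 5 markers that are not keratins were *Ezr* (r = 0.99), *Ptgis* (0.98), *Mst1r* (0.98), *Tmem108* (0.98) and *Abca4* (0.97). The 5 markers themselves correlated with their mean at 0.91 (*Wt1*) to 0.96 (*Upk1b*). Nearest to the 4 keratins were *Bnc1* (0.98), *Ccdc171* (0.98), *F11r* (0.98), *Crb2* (0.98) and *Dlk1* (0.97), against 0.73 (*Krt19*) to 0.94 (*Krt7*) for the keratins. *Ezr* measured 405, 345, 228 and 210.2 CPM in WT, 375, 557, 306 and 428 in *Sp3+/-* and 1272, 766 and 566 in *Sp3-/-* cells. *Ezr* and *Bnc1* also stood on the wider mesothelial list.

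Markers of other cells varied with the title suffix as well as with genotype. The summed level of the 7 macrophage markers was 2725, 10061 and 9796 CPM in *Sp3-/-* libraries, 2907 in WT library 468-4 and 2750.3 in *Sp3+/-* library 697-4, the 5 libraries without a suffix. It was 327 to 797 CPM in the 6 libraries with a suffix, 3 of them WT and 3 *Sp3+/-*. *Sp3-/-* library 685-1 thus lay below the suffix-free library of each other genotype, whereas 697-2 and 697-5 were above all others. All 7 had higher fitted values in *Sp3-/-* than in WT cells. Over all genes tested in this comparison 18.5% were called and 8.76% called higher. Of the 7 markers 2 were called, *Lyz2* (lysozyme), at 2.73 (SE 0.73, adjusted p = 0.0423, edgeR), and *Mrc1* (mannose receptor), at 2.35 (SE 0.58, adjusted p = 0.0338, edgeR). In the model with the suffix these were 1.37 and 1.47, and none of the 7 was called (6 with an unadjusted p below 0.05, edgeR). Without 468-4 all 7 were called, without 685-1 2 were, and without any 1 of the other 5 libraries none was. Against *Sp3+/-* cells all 7 were called, where 25.5% of all genes were called. Within *Sp3-/-* cells the order of libraries was not that of the mesothelial markers, since 685-1, the highest for those, had the lowest macrophage sum. The 12 lung mesenchyme markers summed to 31209 to 48190.1 CPM in WT, 33532 to 43812 in *Sp3+/-* and 11532 to 30384 in *Sp3-/-* libraries. Of these, 4 were called lower in *Sp3-/-* than in WT cells, the contractile actin *Acta2* (-2.29), the receptor *Pdgfrb* (-2.13), the transcription factor *Tbx5* (-1.17) and the intermediate filament gene *Vim* (-0.46). Over all genes 9.77% were called lower. With the suffix in the model *Acta2* (-2.28), *Pdgfrb* (-1.35) and *Vim* (-0.53) were still called lower, *Tbx5* (-0.64) was not, and *Tcf21*, a mesenchymal transcription factor named because of this count, was called higher (2.51, adjusted p = 0.0484, edgeR). With single libraries left out, 1 to 4 of the 12 were called, 1 without 697-2, 2 without 685-1, 685-2, 697-1 or 697-3. The part of these cells in the marker levels was not tested.

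The markers include keratins that airway epithelium also uses, and 22 lung epithelial markers summed to 7.81 to 16.9 CPM in WT, 6.28 to 11.5 in *Sp3+/-* and 12.0 to 24.5 in *Sp3-/-* libraries. Of the 22, 11 were under 1 CPM in every library and 4 had at most 3 counts in every library. In *Sp3-/-* against WT cells 10 were tested, of which 6 had higher and 4 lower fitted values. Of these 10, 2 were called, both higher, where 18.5% of all genes were called and 8.76% called higher (edgeR). They were *Cdh1* (E-cadherin), at 0 to 0.365 CPM in WT and 2.47 to 5.87 in *Sp3-/-* libraries, and *Epcam*, at 0 to 0.281 and 0.596 to 1.20 CPM. Both exceeded 1 CPM in *Sp3-/-* libraries only, so they passed the filter through their level there. The filter thus favoured a higher value for both, and the direction of these calls is a description only. *Cdh1* was called with the suffix in the model and *Epcam* was not, and 0 to 3 of the list were called with single libraries left out, 0 without 685-2 or 697-2. The 4 keratin markers summed to 47.9 to 90.6 CPM in WT and 115 to 404 in *Sp3-/-* libraries, and the other 5 markers to 686 to 1660 and 2073 to 5587. None of the 7 endothelial markers tested was called (edgeR, 0 with an unadjusted p below 0.05, and 0 called by DESeq2), although 2 were without 468-4, and their list summed to 29.7 to 75.7 CPM in WT and 43.4 to 50.0 in *Sp3-/-* libraries. The most abundant of them, *Kdr*, a receptor for VEGF, had a log2 fold change of -0.40 (SE 0.46, adjusted p = 0.5514, edgeR). The list does not hold *Vwf* and *Cd34*, endothelial markers whose expression the authors report as increased in *Sp3-/-* mesenchymal cells. Its values therefore do not stand for all endothelial genes.

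**Figure D5:**
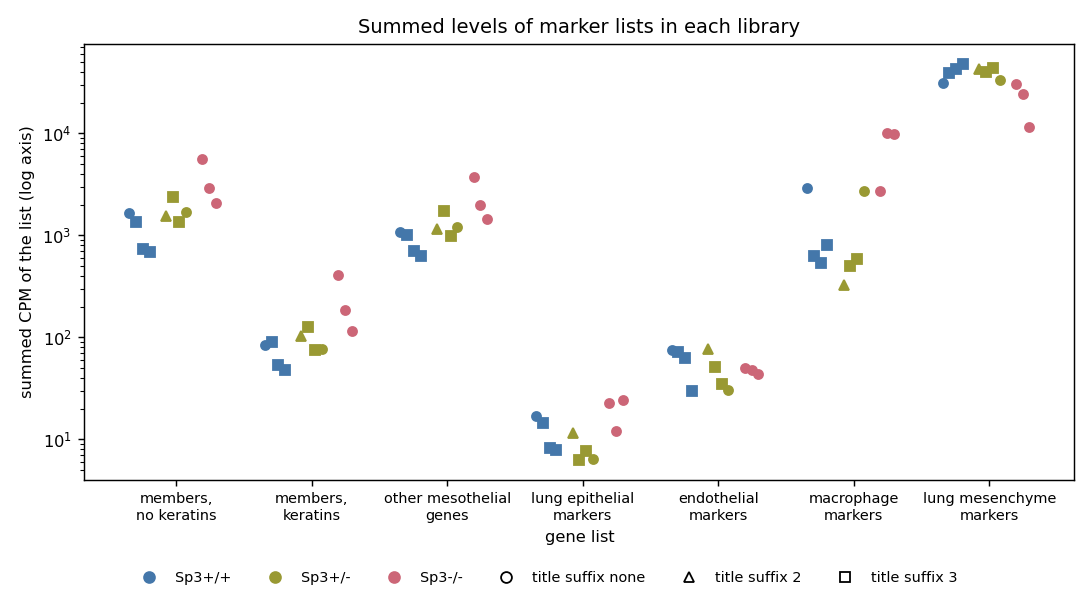
Summed CPM (vertical log axis) of each gene list in each library, coloured by genotype and shaped by title suffix. Both groups of markers and the wider mesothelial list are highest in Sp3-/- library 685-1, the epithelial sum stays below 25 CPM, and the macrophage sum is 2725 CPM or more in all 5 libraries without a suffix and 797 or less in the other 6.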

How the data were processed

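A set of 11 RNA-seq libraries was analysed, 4 WT, 4 *Sp3+/-* and 3 *Sp3-/-*, with genotypes taken from the labels. The authors prepared TruSeq libraries, sequenced 50 bp single end reads, checked them with FastQC 0.10.1, aligned them to mm10 with STAR 2.4.5a and tallied them on genes with htseq-count. The deposited files hold raw counts per gene symbol and 5 tallies of reads outside genes, which made up 38.4% to 40.9% of each total and were left out. The annotation version and strand setting are not given in the sources used here.

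Any gene exceeding 1 CPM in 1 or more fitted libraries entered edgeR's test (version 4.0.16, R 4.3.3, TMM, robust glmQLFit, glmQLFTest). Benjamini-Hochberg adjustment covered every tested gene, and the threshold was 0.05. *Sp3-/-* was compared with WT in a fit of their 7 libraries, and the other pairs in a fit of all 11. SEs are those implied by the F statistic. For log2 CPM, a prior count of 2 was added and the TMM factors of the 11 libraries were computed jointly. Depth limits the scarce markers, and the number of libraries limits every comparison.

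Alternatives were DESeq2 1.42.0, limma-voom (limma 3.58.1) without and with a consensus correlation, other normalizations and filters, single libraries left out, the title suffix as a covariate, a block on the first title number and subsets of libraries. The script was tested on simulated data. The markers and gene lists were chosen with earlier results of these data known. All markers are named, with at most 4 genes of each other list (the called genes with the largest change, or else the most abundant), the 5 genes nearest to each profile and genes overlapping a marker. Promoters are from RefSeq (GRCm38.p6). Repeated windows were searched in GRCm39.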

Additional observations from a re-analysis of the deposited data

How the results depend on the processing

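The fitted direction of all 9 markers in *Sp3-/-* against WT cells was kept under 20 of 21 other settings. The exception was *Krt19*, at -0.035 with libraries 685-1 and 468-4 both left out, a setting chosen after seeing the data. The number of called markers, 5 of 9, became 8 with DESeq2, 8 with all 11 libraries in 1 fit, 3 with every gene that had a count, 1 with the suffix covariate, 0 with that covariate when 697-4 took the suffix of its file (also chosen after seeing the data) and 0 with suffix-free libraries, a fit too small to call even Sp3. It ranged from 1 to 7 with single libraries left out. The 2599 called genes became 4297 (DESeq2), 3977 (11 libraries), 1329 (suffix covariate), 163 (697-4 with the suffix of its file), 0 (suffix-free libraries), 4391 (685-1 and 468-4 left out) and 282 to 4179 (single libraries left out).

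In *Sp3-/-* against *Sp3+/-* cells, 4 markers were called, against 7 with DESeq2, 0 with either suffix covariate, 0 with suffix-free libraries and 2 to 6 with single libraries left out. The 3607 called genes became 763 (suffix covariate), 0 (697-4 with the suffix of its file), 0 (suffix-free libraries) and 1490 to 4245. Without 685-1, *Upk3b* and *Krt19* turned negative (ranges with single libraries left out -0.083 to 0.51 and -0.36 to 0.57), and *Upk3b* was at -0.27 when 697-4 took the suffix of its file. In *Sp3+/-* against WT cells no setting called a gene, not even Sp3 (0 throughout). *Krt8* turned positive there without 468-4 (range with single libraries left out -0.84 to 0.35), within suffix 3 (0.74) and when 697-4 took the suffix of its file (0.72). The causes were not tested.

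With a replicate block on the first title number, 8 markers and 3718 genes were called in *Sp3-/-* against WT, 7 and 2956 in *Sp3-/-* against *Sp3+/-*, and 0 in *Sp3+/-* against WT. *Upk3b*, *Lrrn4* and *Krt8* were the markers that gained a call against WT. Deviations from the genotype means correlated between -0.62 and 0.34 over 14 same-number pairs (median 0.0995, 7 above 0.1). Over 26 pairs with different numbers the range was -0.52 to 0.71 (median -0.044, 10 above 0.1). All 5 pairs within 685 were above 0.1 (0.105 to 0.293). Most same-number pairs differ in suffix, so these values cannot decide whether the number pairs the libraries.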

Other observations

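Within genotypes the markers did not form a single block. *Sp3+/-* library 697-4 had the lowest *Krt8* of all libraries (0.895 CPM) while its *Upk1b* (535 CPM) was the highest and its *Upk3b* (757 CPM) the second of the *Sp3+/-* libraries. WT library 468-4 had the highest *Krt8* (7.45 CPM) and the lowest *Krt19* (5.31 CPM) of the WT libraries. On the log2 CPM scale *Krt7* exceeded *Krt19* by 1.82±0.99 in WT (SD, n=4), by 2.01±0.39 in *Sp3+/-* (SD, n=4) and by 3.08±0.37 in *Sp3-/-* cells (SD, n=3), with overlap between WT and *Sp3-/-* libraries. *Krt18* exceeded *Krt19* by 1.04±0.68, 0.78±0.30 and 2.14±0.35, where the lowest *Sp3-/-* library (1.92) was above the highest WT library (1.85). These ratios were chosen after their values were seen and were not tested.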
